A study of Mus musculus with 6 samples.

Results

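The 40 genes described here are genes of white and brown fat cells, and they were selected on their values in 1 library, ABT263 replicate 2, where most of them stood far above the other 5 libraries. They are 40 of the 24062 gene symbols in the count table, and all 40 were found in it. The samples are plaque from the aortic arch of C57BL/6 mice of a knockout line prone to atherosclerosis. All 6 libraries, vehicle and treated alike, come from that knockout, from 12 weeks on the high-fat diet TD88137 and from 3 weeks on a low-fat diet (LFD) after it. One group of 3 libraries is labelled Vehicle and the other group of 3 is labelled ABT263. ABT263 (navitoclax, an inhibitor of BCL-2 family survival proteins) was given by intraperitoneal injection 1 time daily in week 1 of low-fat feeding, at a dose of 100 mg/kg. The labels do not say that each sample is a separate animal, so every p-value below measures the spread between these samples, which may be technical.

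White fat cells store triglyceride in a single large lipid droplet coated with perilipin and CIDE proteins, and they secrete hormones such as adiponectin and leptin. Brown fat cells burn lipid in mitochondria that carry the uncoupling protein UCP1, and the fat around the mouse thoracic aorta is of the brown type. Macrophages of plaque also take up and store lipid, and with fat cells they share the nuclear receptor PPAR-gamma, the fatty acid carrier FABP4 and the lipases of the droplet. By such background knowledge, 11 of the 40 genes were treated as restricted to fat cells, which does not exclude expression elsewhere. Of the others, 7 are shared with macrophages and 22 with striated muscle, liver, kidney or glands. In bulk tissue, fewer cells of a type and less RNA per cell cannot be told apart.

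For 5 members, the bases just before the gene start are shown, because genes of fat cells are often described as targets of PPAR-gamma and C/EBP factors. Among the 5, Pparg itself stood only 1.25-fold above the highest other library in ABT263 replicate 2. Of the 40 members, 26 were matched by symbol in the RefSeq promoter table for GRCm38.p6. Each line runs 5′ to 3′ on the plus strand, from 160 to 2 bases before the start, and overlaps no GENCODE exon. Capitals mark a match, on either strand, to the nuclear receptor half-site AGGTCA, spelled TGACCT when read from the other strand, or to the C/EBP core TTGCNNAA, spelled TTNNGCAA when read from the other strand. Lep, for the hormone leptin, is shown at chr6:29060061-29060219, Adig, for adipogenin, at chr2:158502452-158502610, and Ucp1 at chr8:83290188-83290346. The window of Pparg, which encodes PPAR-gamma, lies at chr6:115421906-115422064 before the most downstream of its RefSeq starts. That of Adipoq, for adiponectin, lies at chr16:23146376-23146534 and holds neither motif. Each of the other windows shown holds a match, so these 5 do not show the share among the members.
Lep: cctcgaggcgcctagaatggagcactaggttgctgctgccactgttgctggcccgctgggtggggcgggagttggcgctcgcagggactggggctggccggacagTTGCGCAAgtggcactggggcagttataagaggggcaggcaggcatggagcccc
Adig: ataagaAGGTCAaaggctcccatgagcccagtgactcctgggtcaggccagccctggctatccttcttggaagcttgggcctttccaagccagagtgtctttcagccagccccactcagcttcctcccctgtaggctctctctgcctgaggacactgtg
Ucp1: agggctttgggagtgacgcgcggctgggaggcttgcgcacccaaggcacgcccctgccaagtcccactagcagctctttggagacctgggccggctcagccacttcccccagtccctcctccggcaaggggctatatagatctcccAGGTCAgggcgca
Pparg: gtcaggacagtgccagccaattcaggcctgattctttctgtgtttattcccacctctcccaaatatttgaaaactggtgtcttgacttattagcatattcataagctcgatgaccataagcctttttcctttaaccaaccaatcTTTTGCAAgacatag
Adipoq: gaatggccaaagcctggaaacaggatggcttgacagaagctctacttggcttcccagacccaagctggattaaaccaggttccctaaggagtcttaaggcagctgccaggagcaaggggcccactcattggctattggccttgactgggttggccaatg

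In the 250 bases before any RefSeq start of a gene, AGGTCA was found on either strand in 5 of the 26 matched members (19.2%). These are Adig, Aqp7, Plin5, Pparg and Ucp1. Genes with several starts had more windows to match in, and the shares here were not matched for the number of starts. Among all 27025 genes of the promoter table the share was 15.8%. The C/EBP core was found in 5 of 26 (19.2%), namely Cidec, Dio2, Lep, Plin1 and Pparg, against 10.8% of all genes. In Lep the match reads the same on both strands. The TATA box letters TATAAA, spelled TTTATA when read from the other strand, were found in 3 of 26 (11.5%), which are Acacb, Dio2 and Pparg, against 14.3% of all genes. None of the 3 motifs contains another, and a match describes letters and not a bound site.

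ABT263 replicate 2 stood apart from the other libraries in more than its fat genes. Library totals ran from 62930547 counts, in ABT263 replicate 2, to 110452098, and the limit that a count of 0 allows (3 counts) was 0.0278 to 0.048 CPM (counts scaled to a common library size), for counting error only. All CPM below are on library sizes scaled by TMM. The 9 macrophage markers found summed to 6431 to 12450 CPM in vehicle and to 6478, 2913 and 5759 CPM in ABT263 replicates 1 to 3. Smooth muscle markers (7 genes) summed to 2571 to 3547 CPM in vehicle and to 2376, 15429 and 9546 CPM.

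As a group, the 40 genes summed to 537 to 715 CPM in the other 5 libraries and to 10967 CPM in ABT263 replicate 2. That is 0.0524% to 0.0693% of the counts of those 5 libraries and 1.18% of the counts of ABT263 replicate 2. In that library 39 of the 40 stood above the highest of the other 5, the exception being Orm1, and 31 stood at least 4-fold above it. Of the 16834 genes with 10 or more counts in some library, 663 (3.94%) did so, but this comparison chose the members and nothing is read from either share. Of the 31 members, 24 passed 10-fold, as did 307 (1.82%) of the 16834 genes. Of the same members, 17 passed 100-fold, and those 17 are among the 50 genes of the table that did. Just inside the 4-fold line lay Dio2 at 4.16-fold, and just outside it lay Acsl1 at 3.35-fold. Folds here are over the highest of the other 5 libraries, and they carry no test.

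**Figure D1:**
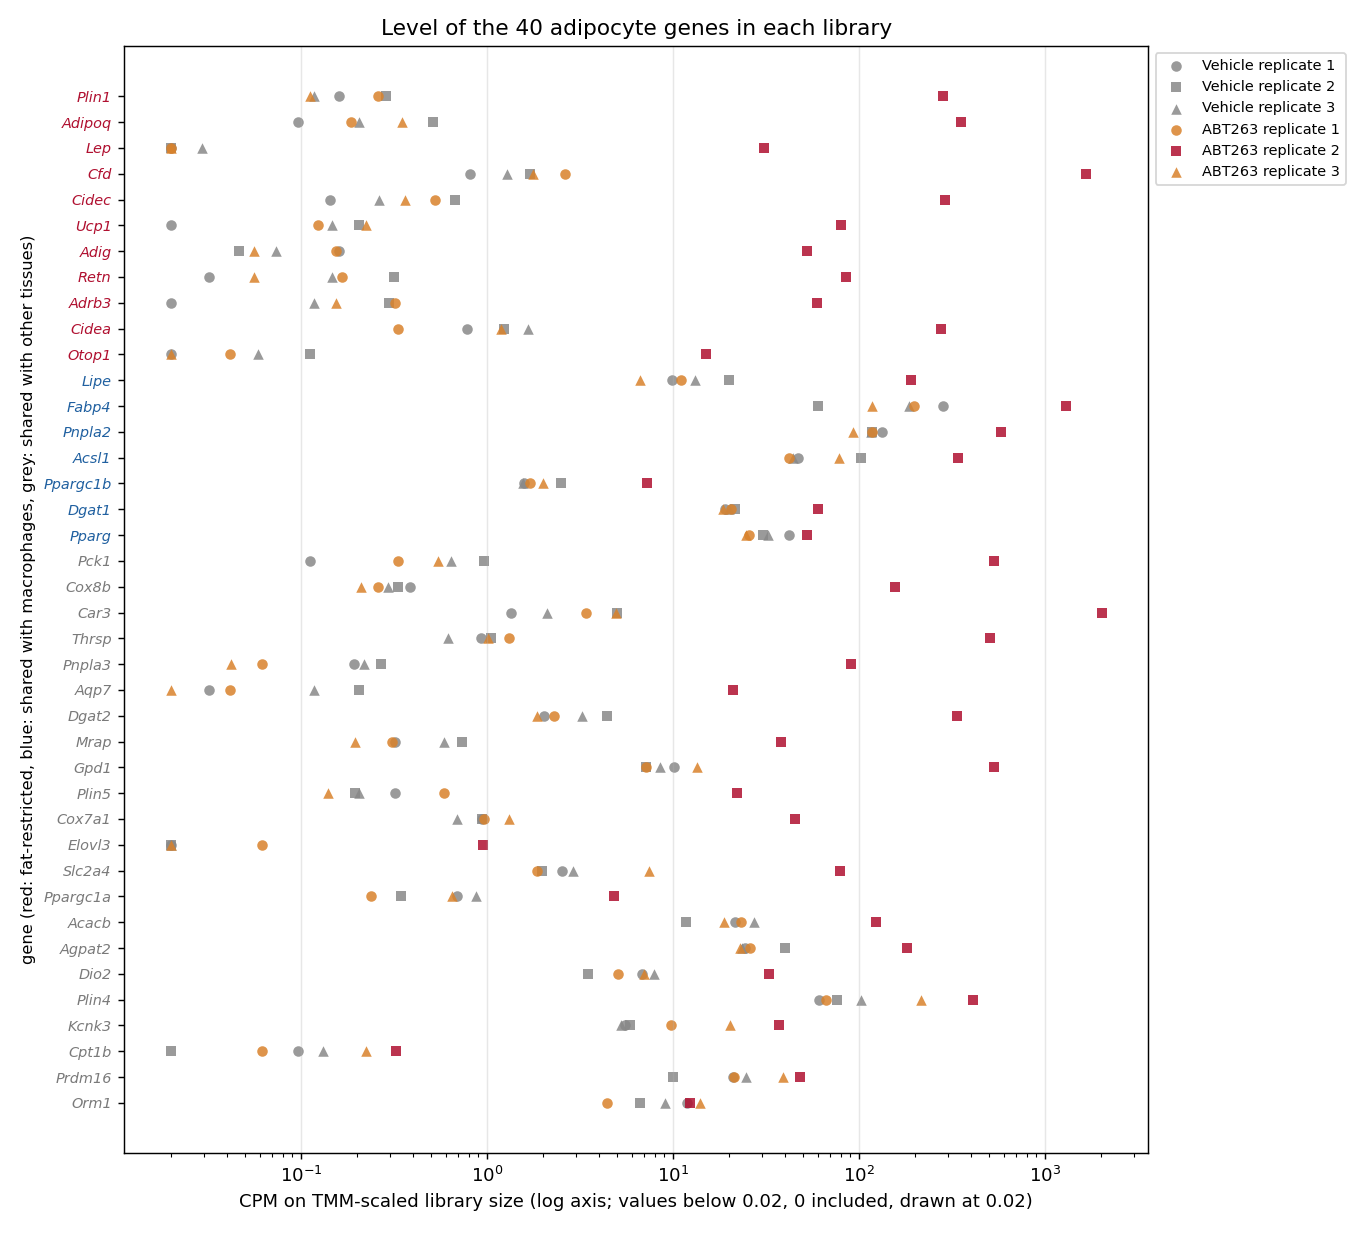
Level of each of the 40 genes (rows, by class) in CPM on a log axis, with 1 point per library; values under 0.02, 0 included, are drawn at 0.02. The red squares of ABT263 replicate 2 lie right of all other points for 39 genes, and far right for the 11 fat-restricted genes at the top, while Orm1 at the bottom lies within the range of the others.

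Of the 5 secreted products, 4 stood far apart in ABT263 replicate 2 and Orm1 did not. Adipoq encodes adiponectin, a hormone made by fat cells. It read 0.0960, 0.51 and 0.205 CPM in vehicle replicates 1 to 3 and 0.186, 356 and 0.351 CPM in ABT263 replicates 1 to 3. ABT263 replicate 2 was 698-fold above the highest other library, with a 95% exact binomial interval of 536 to 926 that covers counting error only. Lep had 0, 2 and 2 counts in vehicle and 0, 2077 and 0 counts with ABT263. The ratio of ABT263 replicate 2 to the highest CPM of the others, which rests on 2 counts in vehicle replicate 3, was 1052 (interval 291 to 8696). With each other library set to at least 3 counts, as in all counts and medians of folds here, it was 641. Without ABT263 replicate 2, leptin RNA was at or under the limit of 3 counts in every library.

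Cfd, the complement protease adipsin, was the most abundant member per length in ABT263 replicate 2. Its levels were 0.816, 1.71 and 1.29 CPM in vehicle and 2.61, 1673 and 1.77 CPM with ABT263. Retn, which encodes the mouse fat hormone resistin, read 0.032 to 0.315 CPM in the other 5 libraries and 84.9 CPM in ABT263 replicate 2. These 4 genes had the same library on top, and the folds of the 3 other than Lep were 269 to 698. The other 5 libraries overlapped between groups for 3 of them. Orm1 encodes an acute-phase protein of plasma that the liver makes and fat also expresses. Its levels of 11.9, 6.68 and 9.10 CPM in vehicle and 4.43, 12.3 and 14.1 CPM with ABT263 put ABT263 replicate 3 highest and showed no library apart.

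Of the 6 genes grouped with the coat of the lipid droplet, 5 passed 4-fold and Plin4 did not, while 3.94% of all genes did. Plin1, the perilipin that guards the droplet of fat cells against lipases, had the largest fold of the 16834 genes once every other library was set to at least 3 counts. It read 0.160, 0.288 and 0.117 CPM in vehicle and 0.258, 282 and 0.112 CPM with ABT263, a fold of 980 (interval 690 to 1442). Cidec, which fuses droplets into a larger one, read 0.144 to 0.677 CPM in the other 5 and 291 CPM in ABT263 replicate 2, and Cidea, the related protein of brown fat, read 0.331 to 1.67 CPM and 277 CPM. Adig, a small membrane protein of fat cells, read 0.0464 to 0.160 CPM and 52.9 CPM. For these 4 genes the other libraries of both groups overlapped.

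The other perilipins are expressed more widely. Plin5, the perilipin of oxidative tissue such as heart and brown fat, read 0.14 to 0.589 CPM in the other 5 and 22.03 CPM in ABT263 replicate 2. Plin4, a perilipin of fat cells and striated muscle, read 61.3, 76.2 and 103 CPM in vehicle and 66.9, 413 and 215 CPM with ABT263. Its fold over the next library, ABT263 replicate 3, was 1.92. Smooth muscle markers were also highest in these 2 ABT263 libraries, and their part in the Plin4 levels was not tested.

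Lipolysis releases fatty acids in steps that begin with Pnpla2 (ATGL) and continue with Lipe (hormone-sensitive lipase). Pnpla2 read 134, 117 and 116 CPM in vehicle and 118, 583 and 93.1 CPM with ABT263, a fold of 4.36. Lipe read 9.84, 19.9 and 13.1 CPM in vehicle and 11.1, 191 and 6.68 CPM with ABT263, a fold of 9.57. Both lipases were thus measured in every library, and the other 5 libraries of both groups overlapped. Lipe has 918 exon bases that an antisense gene overlaps, and its counts may include that gene, since strand was not marked.

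The other 4 members of this role read under 1 CPM in every library but ABT263 replicate 2. Adrb3, the beta-3 adrenergic receptor through which noradrenaline starts lipolysis in mouse fat, read 0 to 0.32 CPM in the other 5 libraries and 59.9 CPM. An antisense gene overlaps 839 of the 3376 exon bases of Adrb3, and its counts may include that gene. Mrap, which carries the ACTH receptor to the cell surface in adrenal and mouse fat cells, read 0.196 to 0.733 CPM and 38.0 CPM. Aqp7, the channel by which glycerol leaves the fat cell, read 0 to 0.204 CPM and 21.0 CPM. Pnpla3, a relative of ATGL found in fat and liver, read 0.192, 0.269 and 0.219 CPM in vehicle and 0.062, 90.3 and 0.0421 CPM with ABT263. Its fold was 336, that of Adrb3 187, that of Aqp7 103 and that of Mrap 51.8.

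Among the genes of fat synthesis and glucose use, the folds ran from 2.78 to 549. Pck1 encodes an enzyme of the routes to glycerol 3-phosphate in fat and to glucose in liver and kidney. It read 0.112, 0.965 and 0.644 CPM in vehicle and 0.331, 529 and 0.547 CPM with ABT263. Thrsp, a thyroid-responsive regulator of fat synthesis, read 0.614 to 1.32 CPM in the other 5 and 510 CPM, 385-fold above the highest. In both genes the other 5 libraries lay at or under 1.32 CPM and the groups overlapped there.

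Dgat2 and Dgat1 encode 2 unrelated enzymes that each catalyse the last step of triglyceride synthesis, and they differed in their background. Dgat2 read 2.03, 4.43 and 3.26 CPM in vehicle and 2.30, 335 and 1.87 CPM with ABT263, a fold of 75.7. Dgat1, which macrophages also express, read 19.0, 21.5 and 20.1 CPM in vehicle and 20.6, 59.9 and 18.6 CPM with ABT263, a fold of 2.78. Agpat2, an enzyme of an earlier step, had a fold of 4.51 from a level of 23.0 to 40.2 CPM to 181 CPM. Its exons overlap those of the endothelial gene Egfl7 by 64 bases.

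Gpd1, which makes glycerol 3-phosphate from a glycolytic intermediate, read 10.1, 7.13 and 8.54 CPM in vehicle and 7.20, 533 and 13.4 CPM with ABT263. An antisense gene overlaps 384 of its 2961 exon bases. Slc2a4, the insulin-regulated glucose transporter GLUT4 of fat and muscle, read 2.54, 1.98 and 2.91 CPM in vehicle and 1.85, 79.6 and 7.41 CPM with ABT263. In both, ABT263 replicate 3 came second, and the folds over it were 39.7 and 10.8. Skeletal muscle markers (7 genes) summed to 4.75 to 5.35 CPM in vehicle and to 4.31, 8.57 and 40.8 CPM in ABT263 replicates 1 to 3, and their part in these levels was not tested. Acacb, the acetyl-CoA carboxylase of oxidative tissue, read 11.8 to 27.3 CPM in the other 5 and 124 CPM. Acsl1, which activates fatty acids in fat cells and macrophages alike, read 42.0 to 102 CPM and 342 CPM. Another gene on the other strand overlaps 1039 of its 10483 exon bases.

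Fabp4 and Car3 are abundant cytosolic proteins of fat cells. Fabp4, a fatty acid carrier that macrophages and endothelium also make, read 285, 60.2 and 187 CPM in vehicle and 198, 1292 and 118 CPM with ABT263, a fold of 4.54. Vehicle replicate 2, lowest for Fabp4, was also lowest for the 5 endothelial markers, at a sum of 366 CPM against 1557 to 4620 CPM elsewhere, and the part of these cells was not tested. Car3, a carbonic anhydrase of fat, liver and slow muscle, read 1.34, 5.01 and 2.11 CPM in vehicle and 3.41, 2022 and 4.95 CPM with ABT263, a fold of 404. It was the member of highest CPM in ABT263 replicate 2.

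Heat production is the work of brown and beige fat. Ucp1, which lets protons leak across the inner mitochondrial membrane, read 0, 0.204 and 0.146 CPM in vehicle and 0.124, 80.2 and 0.224 CPM with ABT263. Its fold was 357 (interval 219.8 to 626). Otop1, a proton channel expressed in brown fat, read 0 to 0.111 CPM in the other 5 and 15.1 CPM. Cox8b and Cox7a1, subunits of cytochrome c oxidase found in striated muscle and brown fat, read 156 and 45.4 CPM in ABT263 replicate 2, against 0.21 to 0.384 CPM and 0.687 to 1.32 CPM elsewhere. These 4 genes were near the limit of counting or low in the other libraries and stood 34.4-fold to 406-fold above them in 1 library.

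Other heat genes were less separated. Dio2, which converts thyroid hormone to its active form, read 6.78, 3.50 and 7.88 CPM in vehicle and 5.08, 32.8 and 7.03 CPM with ABT263. Elovl3, a fatty acid elongase of cold-stimulated brown fat, had 64 counts in ABT263 replicate 2, 6 counts in ABT263 replicate 1 and 0 in the other 4, a ratio of 15.3 (interval 6.66 to 43.2). Cpt1b, which brings fatty acids into muscle and brown fat mitochondria, read at most 0.326 CPM anywhere. Its ratio was 1.45 (interval 0.729 to 2.96), from 22 counts in ABT263 replicate 2 and 16 in ABT263 replicate 3. Of its 3372 exon bases, 2744 overlap a read-through gene, so its low counts are uncertain. Kcnk3, a potassium channel of smooth muscle and brown fat, read 5.52, 5.90 and 5.25 CPM in vehicle and 9.72, 37.2 and 20.3 CPM with ABT263.

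The 4 transcriptional regulators had folds of 1.23 to 5.47. Pparg read 42.2, 30.4 and 32.5 CPM in vehicle and 25.5, 52.7 and 24.7 CPM with ABT263, a fold of only 1.25 over vehicle replicate 1. Prdm16, a regulator of the brown fat programme that smooth muscle and other tissues also express, read 21.1, 10.1 and 24.8 CPM in vehicle and 21.3, 48.4 and 39.2 CPM with ABT263. The coactivators of mitochondrial genes Ppargc1a and Ppargc1b reached 4.80 and 7.23 CPM in ABT263 replicate 2, which were 5.47-fold and 2.89-fold above the highest other library. All 4 were measured in every library.

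By class, the 11 fat-restricted genes summed to 2.19 to 5.41 CPM in the other 5 libraries and to 3202 CPM in ABT263 replicate 2. Their folds had a median of 357 and ran from 135 (Otop1) to 980 (Plin1). The 7 genes shared with macrophages summed to 341 to 538 CPM in the other 5 and to 2528 CPM, with a median fold of 3.35 and a range of 1.25 to 9.57. For the 22 genes shared with other tissues the sums were 172 to 370 CPM and 5237 CPM, and the median fold was 24.9. These 22 include Kcnk3 and Prdm16, which smooth muscle also expresses. The median over all 16834 genes was 0.781. Lep enters at 641, over the floor of 3 counts. All 11 restricted genes passed 100-fold, against 0 of the 7 that macrophages share and 6 of the other 22. Among all 16834 genes, 50 did. The classes describe the members as chosen, and no test was made of the difference between them.

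**Figure D2:**
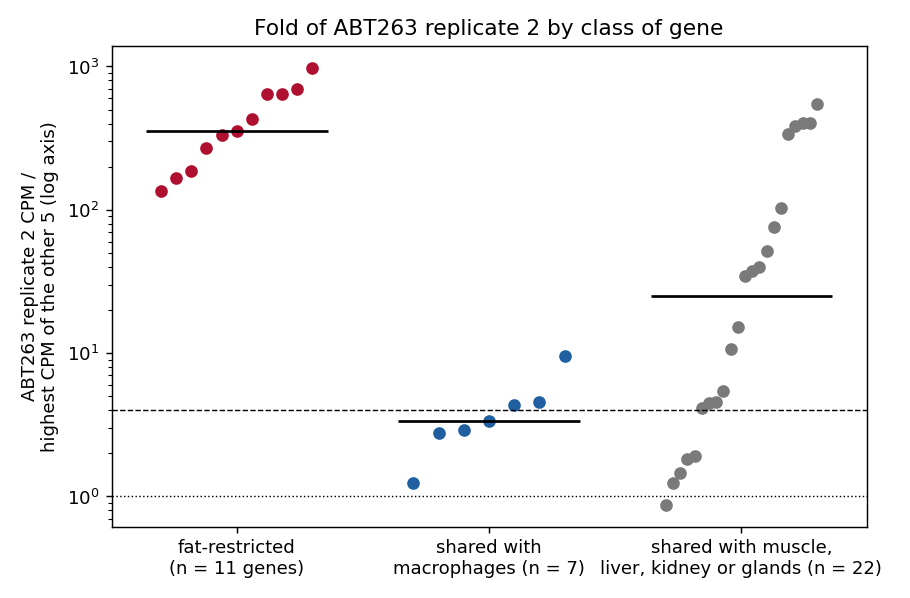
Fold of ABT263 replicate 2 over the highest of the other 5 libraries, on a log axis, for each gene (points) by class, with the class median as a bar and Lep drawn over the floor of 3 counts; the dotted line is 1-fold and the dashed line 4-fold. The medians are 357 for fat-restricted genes, 3.35 for genes shared with macrophages and 24.9 for genes shared with other tissues.

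Levels can be compared between genes only per length, here as CPM per kilobase of merged GENCODE M21 exon. On that scale Cfd (1815), Car3 (706) and Cox8b (433) led in ABT263 replicate 2, followed by Fabp4 (288), Adipoq (258), Cidea (248) and Thrsp (233). In the median of the other 5 libraries the order was another one. Fabp4 (41.6 CPM per kilobase) and Pnpla2 (38.8) led, then Plin4 (13.2), Orm1 (11.7), Agpat2 (11.4) and Pparg (10.3), while Adipoq stood at 0.148 and Plin1 at 0.0344.

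**Figure D3:**
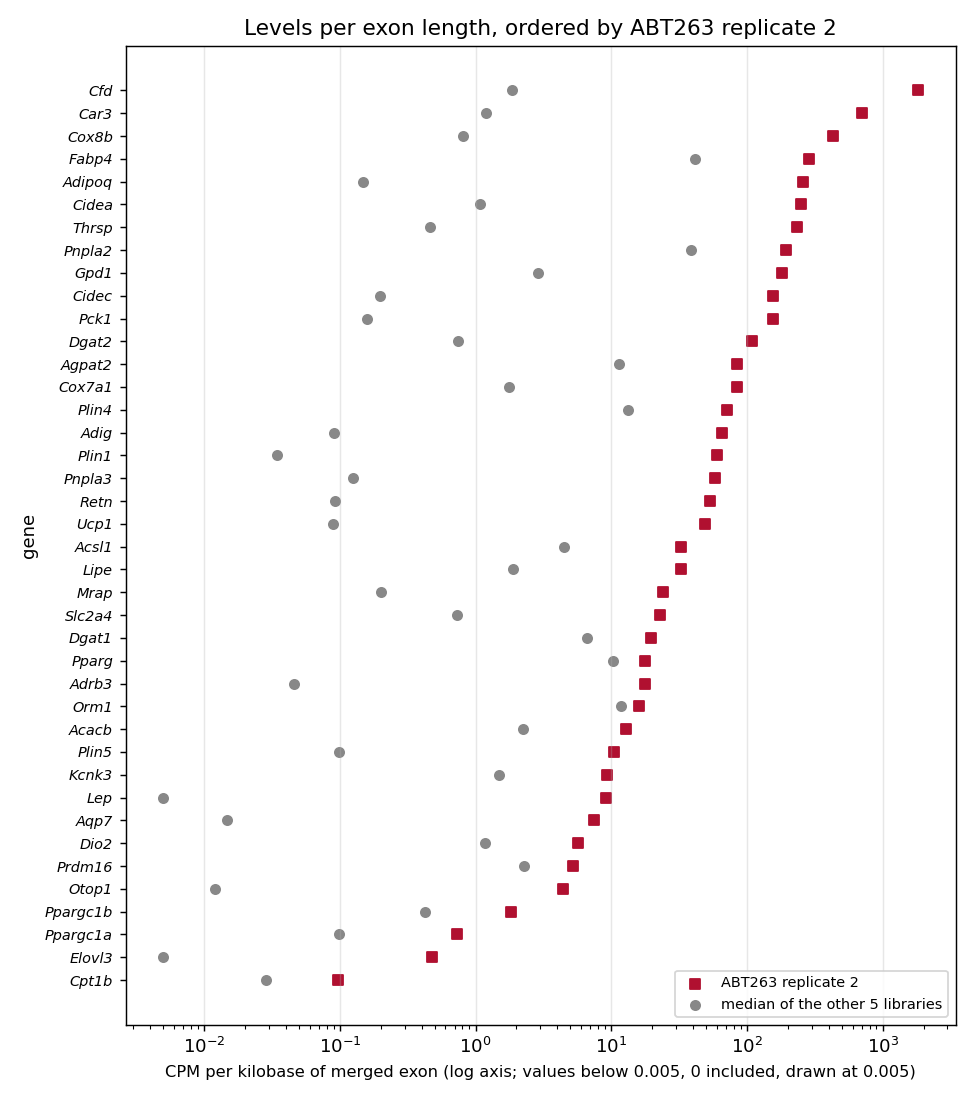
CPM per kilobase of merged exon, on a log axis, for each gene in ABT263 replicate 2 (red squares) and as the median of the other 5 libraries (grey circles); values under 0.005, 0 included, are drawn at 0.005. Cfd is highest in ABT263 replicate 2 at 1815, and Fabp4 is highest in the other libraries at 41.6.

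Markers of some other cell types also stood high in ABT263 replicate 2, as values beside the fat genes. The 5 mesothelial markers (Msln, Upk3b, Lrrn4, Wt1 and Krt19) summed to 0.612 to 2.40 CPM in the other 5 libraries and to 525 CPM, and all 5 passed 4-fold. Mesothelium covers the surface of the lung, heart and body cavities. The 6 heart muscle markers summed to 4.56 to 14.6 CPM in the other 5 and to 66.3 CPM, of which Tnnt2 gave 41.4 CPM. Of these markers 4 passed 4-fold, while 3.94% of all 16834 genes did. Myl7, the atrial myosin light chain, read 17.1 CPM against at most 0.124 CPM. Tnni3 went the other way, at 1.41 CPM against 1.33 to 8.03 CPM. In the other lists, 2 of 7 fibroblast, 2 of 5 Schwann cell and 1 of 7 smooth muscle markers passed 4-fold. No endothelial, skeletal muscle, preadipocyte, T cell, B cell or red cell marker did. All 9 macrophage markers found lay below the highest other library. The part of these cells in the levels of the members was not tested.

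**Figure D4:**
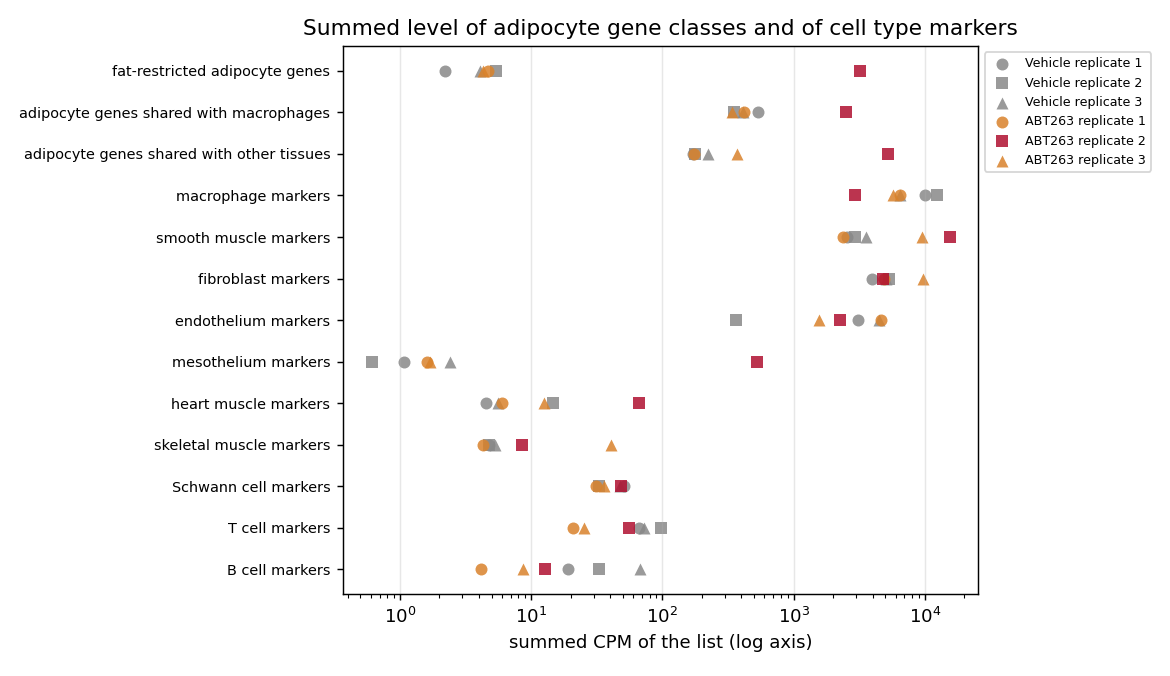
Summed CPM, on a log axis, of the 3 classes of adipocyte genes and of cell type marker lists (rows), with 1 point per library. In ABT263 replicate 2 (red squares) fat-restricted genes reach 3202 CPM and mesothelial markers 525 CPM, while macrophage markers, at 2913 CPM, are lower there than in any other library.

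Fat cell genes outside the 40 followed in part, and those named as past 4-fold were picked after their values were seen. Of all 16834 genes, 3.94% passed 4-fold. In lipogenesis 4 of 10 passed, with Fasn, the fatty acid synthase, at 57.2 to 117 CPM in the other 5 and 2100 CPM in ABT263 replicate 2, and Scd1, a fatty acid desaturase, at 96.7 to 407 CPM and 4301 CPM. The desaturase Scd2, more widely expressed, read 134 to 315 CPM and 266 CPM. In lipid uptake and storage 2 of 15 measured genes passed. Lpl, the lipase that macrophages also secrete, read 1176 to 4708 CPM in the other 5 and 1796 CPM in ABT263 replicate 2. The macrophage-rich droplet protein Plin2 (619 to 1907 CPM) and the scavenger receptor Cd36 (627 to 2232 CPM) read 331 and 697 CPM there.

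Of the other lists, 5 of 14 genes of white fat passed 4-fold, and 4 of 20 of brown fat and mitochondria. So did 3 of 11 transcription factors, 2 of 8 lipolysis partners and 0 of 3 beige markers, against 3.94% of all genes. Cebpa, a transcription factor of fat and myeloid cells, read 119 to 197 CPM in the other 5 and 155 CPM in ABT263 replicate 2. Likeness of other genes to the members was measured over the 6 libraries as the log2 ratio of ABT263 replicate 2 to the highest of the other 5, after adding 0.5 CPM to both. Genes under 10 CPM in ABT263 replicate 2 and symbols of predicted genes or clones were left out. The 5 highest were Ces1d, an esterase of fat and liver (8.21), Cyp2e1 (7.84), Upk3b (7.45), Tmem45b (7.27) and Msln (7.22), and the next 5 were Gpc3, Lrrn4, Inmt, Upk1b and Acsm3 (7.07 to 6.04). Upk3b, Msln and Lrrn4 are mesothelial markers, so the likeness is not particular to fat genes.

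ABT263 was compared with vehicle by edgeR's quasi-likelihood test, with p-values adjusted over all genes. With all 6 libraries, 0 of 15222 genes (0%) were called at an adjusted p under 0.05, and 1276 had an unadjusted p under 0.05. The filter on low counts kept 35 members, and left out Lep, Aqp7, Elovl3, Cpt1b and Otop1. None of the 35 was called (smallest adjusted p 0.592), and their median log2 fold change was 4.43. DESeq2 called 153 of the 15222 (1.01%) and 1 member, Kcnk3 (adjusted p 0.0130), and gave no adjusted p for 20 members. This contrast holds the library that chose the members, so nothing is read from these values.

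Without ABT263 replicate 2, the contrast sets ABT263 replicates 1 and 3 against 3 vehicle libraries, all 5 of which the selection took as the low libraries. By edgeR, 0 of 15433 genes (0%) were called, with 653 at an unadjusted p under 0.05. DESeq2 called 118 genes (0.765%) and 0 members. The same 35 members were kept, 17 with a positive and 18 with a negative log2 fold change. Their median was -0.02, and that of all genes -0.01. For fat-restricted genes the median was 0.24 over 9 genes kept, and for the macrophage-shared genes it was -0.16 with 0 of 7 positive, while 48.4% of all genes were positive. The 9 macrophage markers had a median of -0.61 in the same contrast, also with 0 positive, and their part in these values was not tested. In the libraries that remain, members as a group thus lay near the median of all genes.

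Single members differed in size there. Kcnk3 had the largest positive value, a log2 fold change of 1.44 ± 0.36 (SE, 2 against 3 libraries), with an unadjusted p of 0.00717 and an adjusted p of 0.99995 by edgeR. It was higher in both ABT263 libraries than in any vehicle library. Leaving out ABT263 replicate 3 gave 0.81. Smooth muscle markers summed to 9546 CPM in that library, to 2376 CPM in ABT263 replicate 1 and to 2571 to 3547 CPM in vehicle. Their part in the Kcnk3 levels was not tested. Pnpla3 had the largest negative value, -2.08 ± 0.74 (unadjusted p = 0.0322, adjusted p = 0.99995 by edgeR), from 12 to 29 counts in vehicle libraries against 6 and 3 counts. The other 33 had an unadjusted p of 0.05 or more.

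Plin4 (0.82 ± 0.51) and Slc2a4 (0.91 ± 0.61) turned negative without ABT263 replicate 3, at -0.26 and -0.42. Pparg (-0.48 ± 0.22) and Lipe (-0.68 ± 0.41) had negative values and Cfd (0.78 ± 0.48) a positive one, and none of these 5 passed the test. Groups did not overlap for 3 of the 35 members that were higher with ABT263 (Cfd, Cox7a1 and Kcnk3), while 8.09% of all genes did so. They did not overlap for 4 of 35 that were lower (Pparg, Pnpla3, Cox8b and Mrap), against 9.23% of all genes. Both shares are close to the background.

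**Figure D5:**
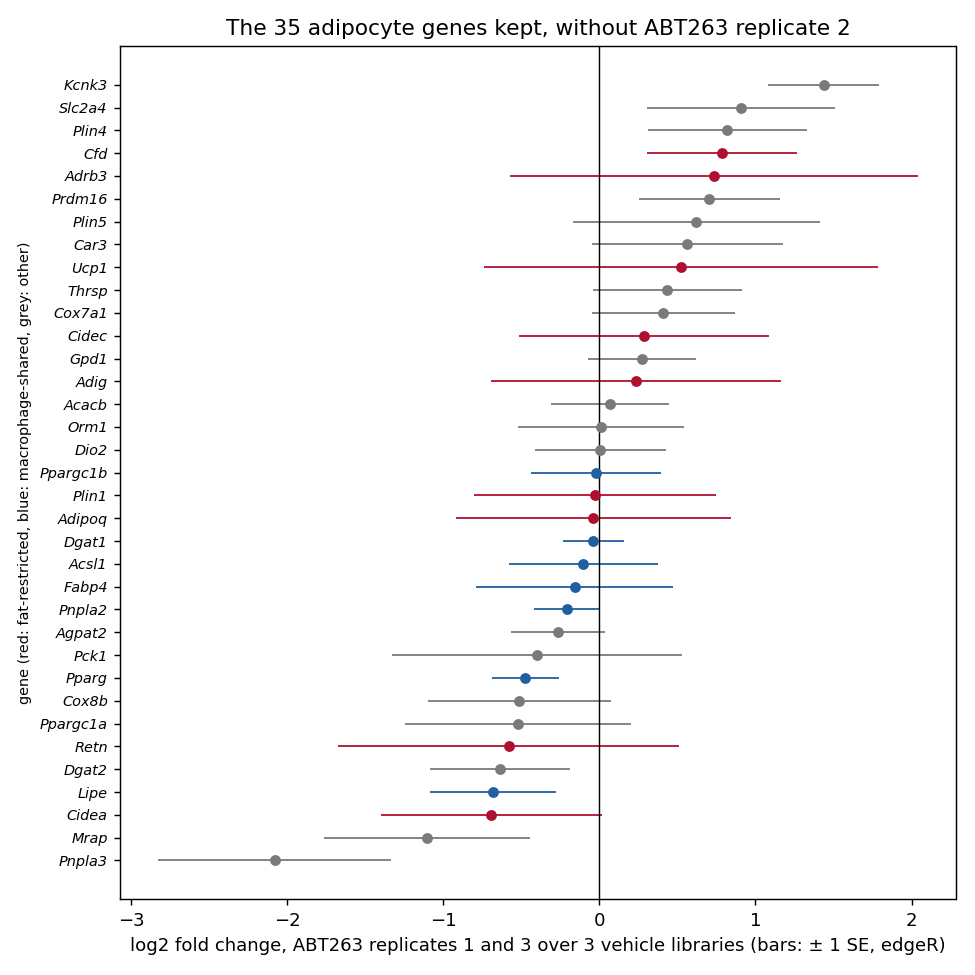
Log2 fold change of ABT263 replicates 1 and 3 over the 3 vehicle libraries for the 35 genes kept, with bars of 1 SE either side from edgeR. Values run from -2.08 for Pnpla3 to 1.44 for Kcnk3, and 17 lie above and 18 below 0.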

How the data were processed

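Bulk RNA-seq covered 6 plaque samples. What the authors deposited is 1 table of raw read counts, with a whole number for each gene symbol in each library. Per the labels' protocols, RNA was column-extracted with a micro kit and 100 to 200 ng went into TruSeq v2 libraries, a kit that does not mark strand. Per the submitters' processing notes, the tools were Bowtie2 2.2.6, TopHat2 2.0.14, Subread and featureCounts 1.4.6, and the build was mm10. The sources used here do not give the annotation or the treatment of reads shared by several genes. Of the 40 members, 12 have exons that overlap another gene (GENCODE M21, GRCm38), and their counts are less certain.

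Groups came from sample titles. Replicates 1 to 3 are in accession order and pair nothing. Levels are CPM on TMM-scaled library sizes. A fold of ABT263 replicate 2 is its CPM over the highest of the other 5 libraries, each set to at least 3 counts. The exact 95% binomial intervals used the counts of ABT263 replicate 2 and of the highest other library without that floor, scaled by library size. These intervals cover counting error only and are not a test, since the same values chose the members. Group contrasts used the quasi-likelihood test of edgeR 4.0.16 on filterByExpr genes (minimum count 10, minimum total 15), with Benjamini-Hochberg adjustment over all genes and a threshold of 0.05. Alternatives were limma-voom (limma 3.58.1), DESeq2 1.42.0, other scalings, no filter, and leaving out each library. The procedure was run on simulated data in which no library was set apart from its group. That run cannot show how the test behaves with a library such as ABT263 replicate 2. The members, gene lists and classes were chosen with earlier results of these data known, the classes by hand from background knowledge, and the motifs after their counts were seen. All 40 members could be named, with the 4 most abundant genes of each other list and the 10 genes most like the members. The gene knocked out in all 6 samples is not reported here.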

Additional observations from a re-analysis of the deposited data

How the results depend on the processing

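Without ABT263 replicate 2, edgeR called 0 genes and DESeq2 called 118. With all 6 libraries edgeR called 0 and DESeq2 called 153, 1 of them a member. Plin4's log2 fold change ran from -0.26 to 1.43 and Slc2a4's from -0.42 to 1.59 as libraries were left out, and both reversed without ABT263 replicate 3. The cause was not tested. In fits that leave 1 ABT263 library, that sample is assumed to vary like the vehicle group. Genes of the whole table at least 4-fold up in ABT263 replicate 2 numbered 663, against 1118 over the mean of the other 5, 1298 at 2-fold and 307 at 10-fold. Over that mean the median fold became 581 for fat-restricted and 5.05 for macrophage-shared genes. The median log2 fold change of the members with all 6 libraries was 4.43 by edgeR, 1.68 by limma-voom and -0.02 without ABT263 replicate 2. No paired analysis was possible because the labels give no replicate numbers.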
